A study of Mus musculus with 6 samples.

Results

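The genes described here are 10 genes of the integrated stress response and of serine and folate metabolism, measured by total RNA-seq in WT and Srrm2+/- mouse embryonic stem cells (ESC). They are Atf4, Ddit3, Trib3, Chac1, Asns, Phgdh, Psat1, Shmt2, Mthfd2 and Hspa5. They were chosen by name from a table of 42450 genes, with earlier results of these data known. All 10 passed the filter on low counts. The WT group is the male ESC line E14tg2a.4, with 3 libraries. The Srrm2+/- group, also with 3 libraries, is CG0630, a line made from E14tg2a.4 cells by insertion of a gene-trap cassette into exon 1 of 1 allele of Srrm2, which encodes a scaffold protein of nuclear speckles with a role in splicing. Both lines grew on gelatine with LIF and were moved to serum-free ESGRO medium before collection (24 h or 72 h in the labels, while the study's methods give a time between these for the growth of cultures for total RNA), and the labels name no stress treatment. Srrm2+/- is a single gene-trap line, and its cultures were frozen at lower passage numbers than those of WT, so genotype, clone and passage cannot be told apart. The study treats cells thawed from 3 frozen batches of each line as biological replicates.

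Cells that lack amino acids, fold proteins poorly or meet other stresses phosphorylate the translation factor eIF2alpha. This lowers general protein synthesis but raises translation of the mRNA of ATF4, a bZIP transcription factor that then switches on genes for amino acid synthesis and uptake, tRNA charging and, if stress persists, cell death. Because ATF4 is controlled mainly at translation, the level of its mRNA is not a measure of its protein. The enzymes that make serine and pass its carbon to folate are among its targets, and this carbon serves the nucleotide synthesis and methylation that fast-cycling ESC need. Hspa5 belongs to a neighbouring branch of stress control, the unfolded protein response of the endoplasmic reticulum (ER).

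The libraries held between 54151532 and 69933465 estimated counts. Levels are given as normalized CPM, the count of a gene scaled to the TMM-adjusted size of its library, and fold changes as log2 of Srrm2+/- over WT. A mean ± SD covers the 3 libraries of a group throughout (n = 3). A gene is called at an adjusted p under 0.05 in edgeR's quasi-likelihood test over all 18905 genes tested. Srrm2 itself was at 62.0% of its WT level (log2 fold change -0.69, SE 0.05, edgeR adjusted p 2.38e-05), in the direction the group labels imply. The ESC marker Pou5f1 stood at 847 ± 16.3 CPM in the WT libraries against 824 ± 11.7 CPM in those of Srrm2+/- and was not called, whereas over the 8 ESC markers 5 were called lower, Nanog among them (log2 fold change -0.72), and 1 higher. Markers of other cells were scarce. The 6 primitive endoderm markers summed to 2.32 to 2.70 CPM in WT and 2.54 to 3.57 CPM in Srrm2+/-, and the 5 trophectoderm markers to 1.83 to 1.89 and 2.36 to 2.79 CPM, with Cdx2 at 0 in every WT library. The 6 fibroblast and feeder markers summed to 1.42 to 1.77 CPM in WT and 5.61 to 9.005 CPM in Srrm2+/-, with Dcn at 0 in every WT library. Of those that could be tested, 1 of 5 primitive endoderm, 1 of 3 trophectoderm and 3 of 4 fibroblast markers were called higher and none lower. Over all genes tested, 13.6% were called higher and 11.7% lower. The trophectoderm call was lost without any 1 library other than WT replicate 2, under DESeq2 and under the 1 CPM filter, which also removed the primitive endoderm call. The part of such cells in the results was not tested.

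Of the 10 genes, 6 were called lower in Srrm2+/- cells (Atf4, Ddit3, Trib3, Chac1, Asns and Shmt2), 1 was called higher (Hspa5) and 3 were not called (Phgdh, Psat1 and Mthfd2). Over all genes tested, 25.3% were called, 11.7% lower and 13.6% higher. Among the 3969 genes whose mean level lay in the range of these 10 genes, 34.8% were called, 20.3% lower and 14.5% higher. DESeq2 and limma voom also called 7 of the 10, against 24.9% and 25.3% of all genes tested. The log2 fold change was below 0 for 9 of the 10 genes and for 50.3% of all genes. The falls were modest, with a median of -0.29 over the 6 genes called lower, and the median over all 10 genes was -0.19 against -0.00254 over all genes tested. The libraries of WT and Srrm2+/- did not overlap for 9 of the 10 genes, which was the case for 41.4% of all genes tested. For 8 of the 9 the Srrm2+/- libraries were the lower ones (20.0% of all genes, against 21.4% with the Srrm2+/- libraries higher). The counts behind these values lay between 2306 and 45606 per gene and library. Of the 7 calls, 4 (Atf4, Chac1, Asns and Hspa5) were kept with each library left out in turn. Since the genes were chosen with earlier results of these data known, the shares set beside those of all genes are descriptions and not tests.

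**Figure D1:**
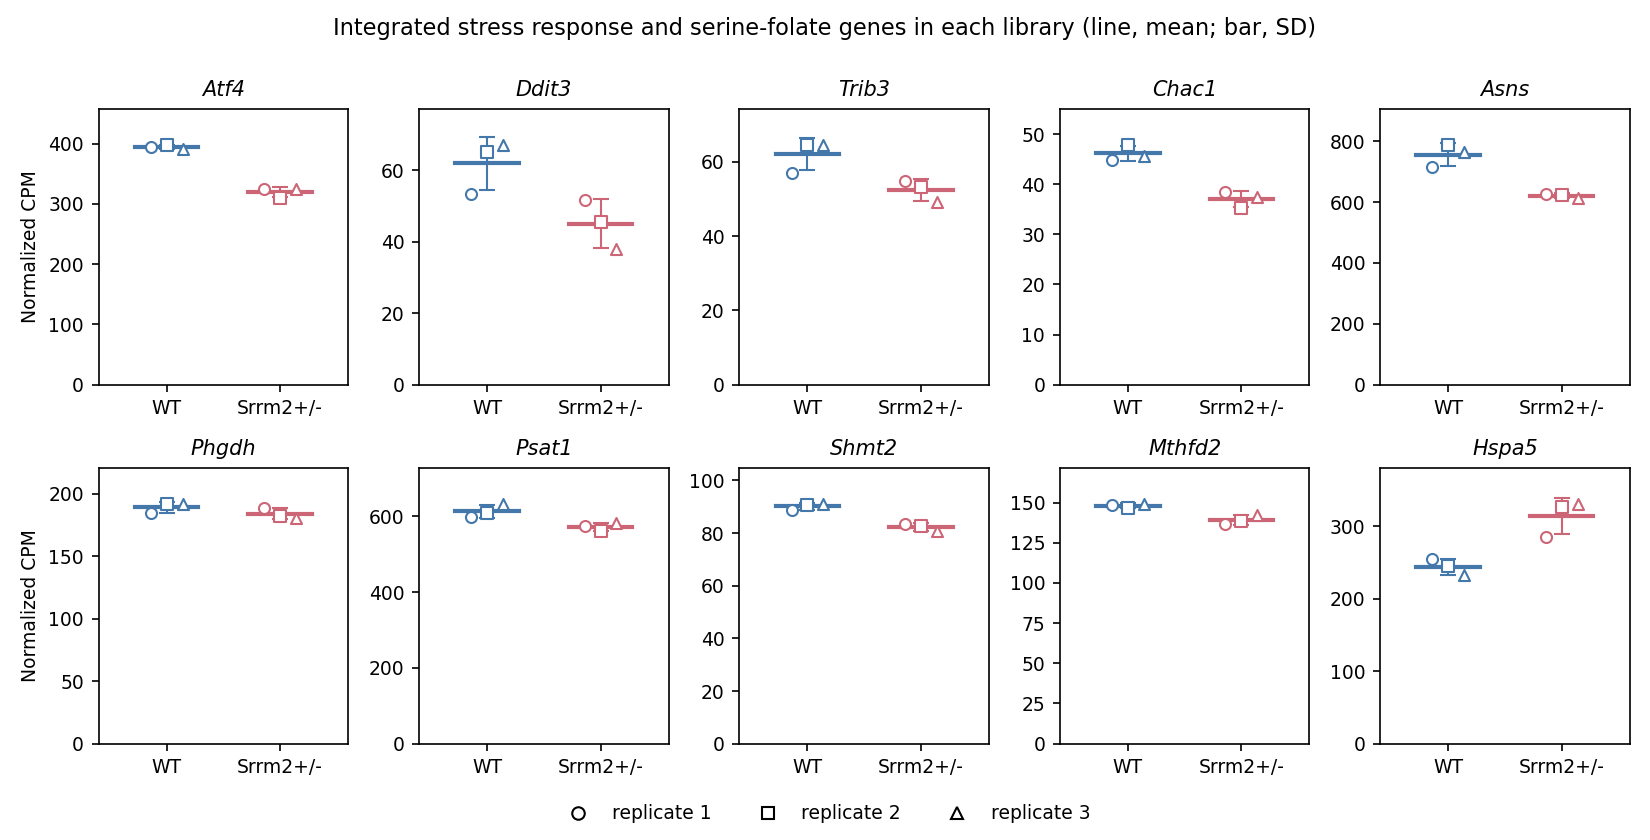
Normalized CPM of each of the 10 genes in the 3 WT (blue) and 3 Srrm2+/- (red) libraries, with 1 symbol per replicate, the mean as a line and the SD as a bar; every axis starts at 0. The groups are apart for 9 genes and overlap for Phgdh, and Hspa5 is the gene that is higher in Srrm2+/-.

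Atf4 (ENSMUSG00000042406, GRCm38 chr15:80255184-80257541, plus strand) encodes the central factor of the pathway. Its level was 394, 398 and 391 CPM in the WT libraries and 325, 310.4 and 324 CPM in the Srrm2+/- libraries. Every Srrm2+/- library lay below every WT library by a margin wider than the range within either group. The means were 395 ± 3.52 and 319.8 ± 8.14 CPM, which placed Srrm2+/- at 81.0% of WT (log2 fold change -0.30, SE 0.04, edgeR adjusted p 0.000475).

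Ddit3 encodes CHOP, a transcription factor that ATF4 induces and that promotes cell death under lasting stress (ENSMUSG00000025408, chr10:127290774-127296288, plus strand). It was the most variable of the 10 genes, with 53.5, 65.2 and 67.2 CPM in WT and 51.6, 45.6 and 37.9 CPM in Srrm2+/-. The lowest WT library and the highest Srrm2+/- library were both replicate 1 and nearly met. With means of 62.0 ± 7.40 and 45.1 ± 6.86 CPM, Ddit3 fell to 72.8% of WT (log2 fold change -0.46, SE 0.12, edgeR adjusted p 0.0191). The call was lost without WT replicate 2 (edgeR adjusted p 0.0660), WT replicate 3 (0.0646), Srrm2+/- replicate 2 (0.0567) or Srrm2+/- replicate 3 (0.0533), and over all alternatives the adjusted p ran from 3.15e-05 to 0.0660. Of the 31-base words of its transcripts 6.78% occur in transcripts of other annotated genes, most of them (4.38%) in a second, short Ddit3 entry on the same strand that was not analysed here. Mars, on the opposite strand, overlaps Ddit3 and shares 38 words with it, so a small part of its count could have been exchanged.

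Trib3, Chac1 and Asns are classical ATF4 targets. Trib3 is a pseudokinase that binds ATF4 and restrains it, Chac1 degrades glutathione, and Asns makes asparagine from aspartate. A short composite element, to which ATF4 binds together with a C/EBP partner, is written here as TGATGNAA and was searched on both strands of RefSeq promoter windows (GRCm38.p6, 250 bases before to 50 after the transcript start). Of 32851 windows, 3.97% held it. All 10 genes had a window, and those of Trib3, Chac1 and Asns were the 3 with a match. The 30 bases around each match are shown on the gene's strand, with the matching letters in capitals, because these 3 genes fell together. Nupr1 and Atf3, which carry the same 8 letters as Chac1 and changed in opposite directions, are printed with them.
Chac1: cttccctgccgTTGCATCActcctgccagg
Trib3: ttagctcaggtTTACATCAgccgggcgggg
Asns: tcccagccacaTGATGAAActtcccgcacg
Nupr1: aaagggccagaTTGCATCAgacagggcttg
Atf3: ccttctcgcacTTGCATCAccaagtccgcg

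Distances are from RefSeq starts, which can differ from the ends of the GENCODE spans given for the genes. The Chac1 stretch (chr2:119351038-119351067, plus strand) holds its match 193 bases before the start, and the Asns stretch (chr6:7693214-7693243, minus strand) 23 bases before it. The Trib3 match begins at base 15 of the RefSeq transcript (chr2:152344028-152344057, minus strand). By the GENCODE spans, the Asns match lies inside the gene and the Trib3 match before its start. The Nupr1 (chr7:126625562-126625591) and Atf3 (chr1:191183425-191183454) stretches, both on the minus strand, each hold theirs 110 bases before the start. A match describes letters in a window and does not show that ATF4 binds there. The windows of the other 7 genes, Atf4 and Ddit3 included, did not hold these letters, which says nothing of sites outside the window.

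Trib3 (ENSMUSG00000032715, chr2:152337422-152344032, minus strand) was at 57.1, 64.6 and 64.6 CPM in WT and at 54.9, 53.2 and 49.1 CPM in Srrm2+/-. The groups were apart by a narrow margin, again between the libraries of replicate 1. Trib3 fell to 84.3% of WT (log2 fold change -0.25, SE 0.06, edgeR adjusted p 0.0189). This call was lost without WT replicate 2 (edgeR adjusted p 0.0703), WT replicate 3 (0.0716), Srrm2+/- replicate 2 (0.0515) or Srrm2+/- replicate 3 (0.0754), and the alternatives together ran from 0.00168 to 0.0754. Chac1 (ENSMUSG00000027313, chr2:119351229-119354381, plus strand) was tighter, with 44.9, 47.9 and 45.6 CPM in WT and 38.4, 35.3 and 37.4 CPM in Srrm2+/-. All 3 Srrm2+/- libraries were clearly below the lowest WT library. It fell to 80.3% of WT (log2 fold change -0.32, SE 0.05, edgeR adjusted p 0.00175).

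Asns (ENSMUSG00000029752, chr6:7675169-7693254, minus strand) had the highest level of the 10 genes on every scale. Its libraries gave 716, 789 and 766 CPM in WT and 628, 625 and 613 CPM in Srrm2+/-. The Srrm2+/- libraries lay close together and below the lowest WT library. Asns fell to 82.2% of WT (log2 fold change -0.28, SE 0.04, edgeR adjusted p 0.00185), and Atf4 to 81.0%. The ratio of Asns to Atf4 CPM within a library, chosen after the values were seen, had means of 1.92 ± 0.0876 for WT and 1.95 ± 0.0615 for Srrm2+/-, which differed by less than the SD of either group.

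**Figure D2:**
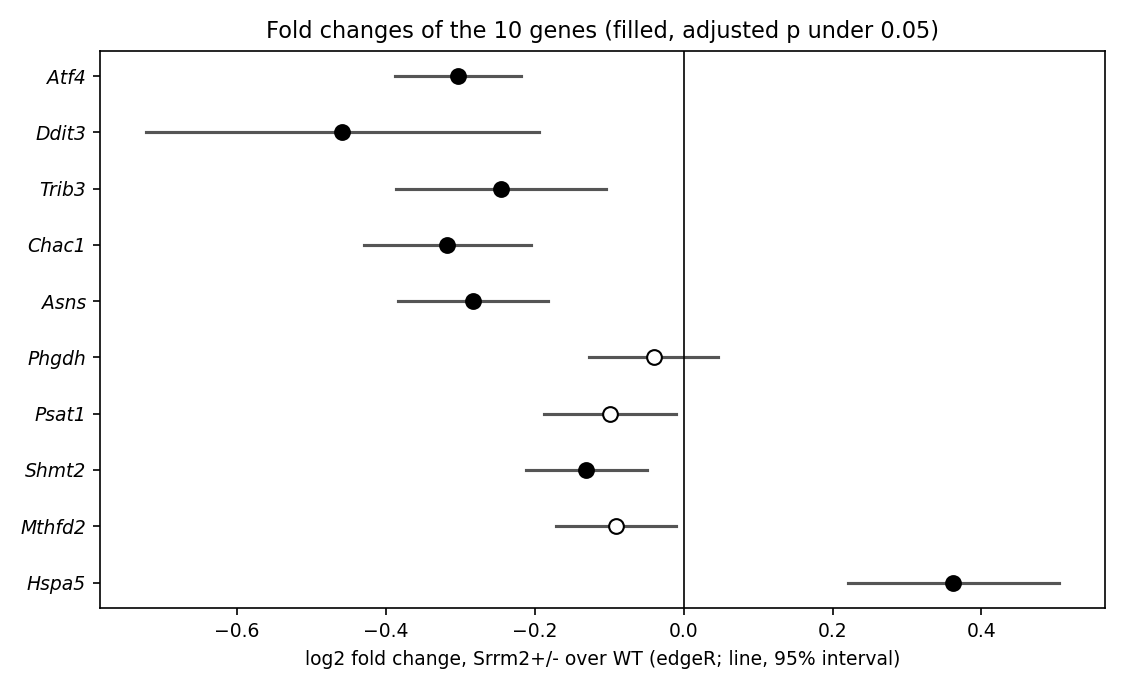
Log2 fold change of Srrm2+/- over WT for each of the 10 genes from the edgeR fit of 3 against 3 libraries, with its 95% interval as a line; filled points are called at an adjusted p under 0.05. Atf4, Chac1 and Asns lie close together near -0.30, -0.32 and -0.28, the serine and folate enzymes lie nearer to 0, and Hspa5 lies on the other side at 0.36.

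The wider ATF4 programme was described with gene lists. Over all genes tested, 11.7% were called lower and 13.6% higher. Among 16 other ATF4 targets, 8 (50%) were called lower and 1 (6.25%) higher, with a median log2 fold change of -0.30. Gdf15, a stress-induced cytokine, fell to 52.9% of WT (log2 fold change -0.92, SE 0.11) and Cth, which makes cysteine from cystathionine, to 66.7% (-0.59, SE 0.04). The exception was Ddit4, an inhibitor of mTORC1 signalling that other stresses also induce, which rose to 173% of WT (0.79, SE 0.05, edgeR adjusted p 1.21e-05). Of 7 partner and downstream transcription factors 3 (42.9%) were lower. They were Nupr1, a small chromatin-associated stress protein, at 54.7% of WT (-0.87, SE 0.09), Jdp2 (-0.42, SE 0.08) and Cebpg (-0.25, SE 0.05), a dimer partner of ATF4. Atf3, a stress factor that is also an immediate early gene, rose in every Srrm2+/- library, from 4.69, 5.19 and 4.56 CPM in WT to 12.5, 9.73 and 8.95 CPM (1.11, SE 0.13, edgeR adjusted p 0.000416).

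Genes that supply amino acids to translation were next. Of 20 cytosolic aminoacyl-tRNA synthetases, which charge tRNAs, 6 were called lower and 1 higher, with a median of -0.07. These were 30% and 5%, against 11.7% and 13.6% of all genes tested. Among genes whose mean level lay in the range of the 10 genes, as it did for most synthetases, the shares were 20.3% and 14.5%. Nars, which charges the tRNA of asparagine, fell most (-0.50, SE 0.06), Eprs was at -0.19 (SE 0.04), and Farsa was the 1 that rose (0.17, SE 0.05). The number of synthetases called fell from 7 to 4 without Srrm2+/- replicate 2 or replicate 3 and was 9 under DESeq2. The 11 amino acid transporters had a median of -0.02, with 3 called lower (27.3%) and 1 higher (9.09%). Slc7a1, which carries cationic amino acids (-0.48, SE 0.08), Slc1a5, which carries glutamine (-0.32, SE 0.06), and Slc7a3 (-0.24, SE 0.05) were lower, and Slc7a5, which carries large neutral amino acids, was higher (0.19, SE 0.05). Slc7a11, the cystine transporter, had means of 8.15 ± 0.613 and 9.83 ± 0.988 CPM and was not called (edgeR adjusted p 0.0808). Cebpg, Slc7a3 and Slc7a11 were named after their values were seen.

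The input of the pathway was compared next. None of the 4 eIF2alpha kinases was called. Eif2ak3 (PERK, which senses ER stress) had means of 21.4 ± 0.138 and 20.6 ± 0.408 CPM, with a 95% interval of the log2 fold change from -0.16 to 0.05. The interval of Eif2ak4 (GCN2, which senses uncharged tRNA) ran from -0.05 to 0.14. Those of Eif2ak1 (-0.10 to 0.14) and Eif2ak2 (-0.18 to 0.05) also held 0. The libraries of the groups did not overlap for Eif2ak3, lower in Srrm2+/-, and for Eif2ak4, higher in Srrm2+/-. This was the case for 41.4% of all genes tested. Ppp1r15a, the stress-induced subunit of the phosphatase that reverses eIF2alpha phosphorylation, was not called (edgeR adjusted p 0.714). In the same list of 10 genes 3 (30%) were called higher and 0 lower, against 13.6% and 11.7% of all genes tested. Impact, which keeps GCN2 inactive by competing for GCN1, rose to 128% of WT (0.35, SE 0.05), Gcn1l1, which encodes GCN1, to 119% (0.25, SE 0.06), and Eif2b5, named after its value was seen, was at 0.13 (SE 0.04). Ppp1r15b, the constitutive phosphatase subunit, was at -0.16 (SE 0.05, edgeR adjusted p 0.0504) with the groups apart, also named after its value was seen. The list had 1 gene called without Srrm2+/- replicate 3 and 4 under RLE, upper quartile, DESeq2, limma voom, the 1 CPM filter or removal of short RNA genes. Messenger levels of kinases do not measure their activity.

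**Figure D3:**
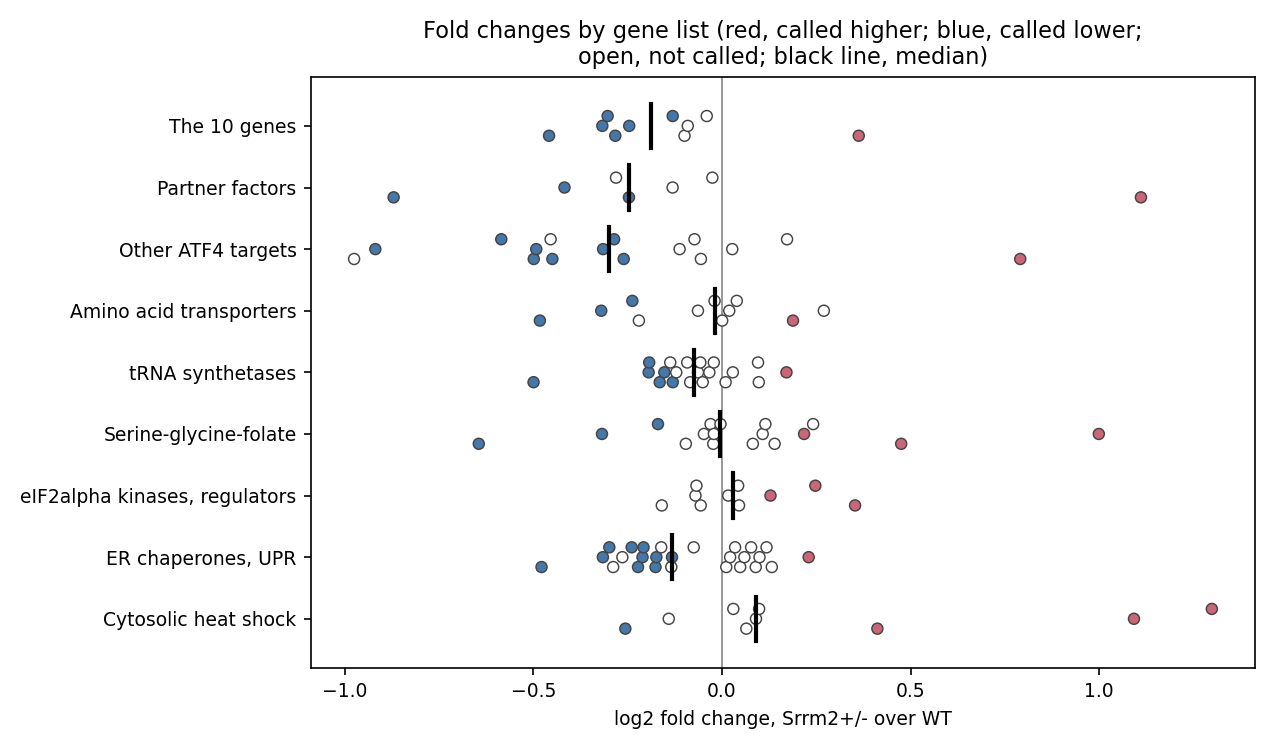
Log2 fold change of Srrm2+/- over WT for every tested gene of each list, with 1 point per gene; red points are called higher, blue points lower, open points are not called, and the black line is the median of the list. The 10 genes, the partner factors and the other ATF4 targets have medians of -0.19, -0.25 and -0.30, whereas the eIF2alpha kinases and regulators have a median of 0.03.

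Over the 10 genes, these lists and the serine, ER and heat shock lists described below, 99 genes had a promoter window, and 19 of them held the composite element. Of these 19, 9 were called lower, 1 was called higher and 9 were not called, with a median of -0.19 and a range from -0.98 (Fgf21, not called) to 1.11 (Atf3). Nupr1 and Atf3, printed above, thus stood near opposite ends with the same 8 letters at the same distance from the start. Over all genes tested, 11.7% were called lower and 13.6% higher. Calls of the listed genes without the element were not counted apart, so whether calls go with the element was not tested. The cAMP response element TGACGTCA was found in 1.79% of all windows and, in the lists, in that of Ppp1r15a.

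The enzymes of the serine pathway did not all move alike. Serine is made from a glycolytic intermediate by Phgdh, Psat1 and Psph in turn. Phgdh (ENSMUSG00000053398, chr3:98313170-98339990, minus strand), the committed step, was at 184, 192 and 192 CPM in WT and at 189, 182 and 181 CPM in Srrm2+/-. Its groups overlapped, and it was not called (log2 fold change -0.04, 95% interval -0.13 to 0.05, edgeR adjusted p 0.496). Of its 31-base words 56.3% occur in transcripts of other genes, 23 of them annotated pseudogenes. The 12 of these in the table held at most 27 counts together in a library, 0.214% of the Phgdh count at most. Adding so few counts could hardly move the log2 fold change, which stayed at -0.04 (edgeR adjusted p 0.498). The sum cannot tell whether pseudogene reads were counted as Phgdh, and the other pseudogenes could not be added.

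Psat1, the aminotransferase of the pathway (ENSMUSG00000024640, chr19:15904678-15947337, minus strand), was at 598, 609 and 633 CPM in WT and at 573, 562 and 582 CPM in Srrm2+/-. All 3 Srrm2+/- libraries were below the lowest WT library, yet the gene was not called (log2 fold change -0.10, SE 0.04, edgeR adjusted p 0.0977), and no alternative called it. The interval of Psat1 placed it between 87.8% and 99.3% of WT. Psph, the phosphatase of the last step and not one of the 10 genes, was the enzyme of this route that was called. Its mean was 85.8 ± 0.200 CPM for WT against 68.8 ± 0.712 CPM for Srrm2+/-, or 80.2% of WT (log2 fold change -0.32, SE 0.03, edgeR adjusted p 0.000228). The ratio of Psph to Phgdh CPM, chosen after the values were seen, had means of 0.453 ± 0.0107 for WT and 0.374 ± 0.00645 for Srrm2+/-.

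Shmt2, which splits serine into glycine and a folate-bound carbon in mitochondria (ENSMUSG00000025403, chr10:127517123-127522444, minus strand), was at 88.8, 90.6 and 91.1 CPM in WT and at 83.6, 82.6 and 80.8 CPM in Srrm2+/-. The groups were apart, and the gene was called at 91.3% of WT (log2 fold change -0.13, SE 0.04, edgeR adjusted p 0.0267). The call was lost without WT replicate 2 (edgeR adjusted p 0.0821), WT replicate 3 (0.101), Srrm2+/- replicate 2 (0.0772) or Srrm2+/- replicate 3 (0.107), and its alternatives together ran from 0.0195 to 0.107. Mthfd2, the mitochondrial dehydrogenase and cyclohydrolase that follows it (ENSMUSG00000005667, chr6:83305691-83325908, minus strand), was at 149, 147 and 149 CPM in WT and at 137, 138 and 142 CPM in Srrm2+/-. Its groups were apart, but it was not called (log2 fold change -0.09, SE 0.04, edgeR adjusted p 0.0952). The 95% interval of Mthfd2 placed it between 88.8% and 99.3% of WT. Psat1 and Shmt2 also overlap annotated genes on the opposite strand and Mthfd2 one on its own strand, so their counts could hold reads of these neighbours.

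Of 17 other enzymes and carriers of serine, glycine and folate metabolism, 3 were called higher, 3 lower and 11 not, with a median of -0.0041. Each direction held 17.6% of the list, against 13.6% higher and 11.7% lower over all genes tested. The cytosolic Shmt1 fell to 88.9% of WT (-0.17, SE 0.03) and Aldh1l2, a mitochondrial formyltetrahydrofolate dehydrogenase, to 64.0% (-0.64, SE 0.11), and Psph, described above, was the other gene called lower. Gldc, the decarboxylase of the glycine cleavage system, rose to 139% of WT, with means of 297 ± 24.2 and 413 ± 27.7 CPM (0.47, SE 0.07). Amt and Gcsh, other proteins of the same system, were not called (edgeR adjusted p 0.421 and 0.700). The cytosolic Mthfd1 rose to 116% of WT (0.22, SE 0.04). Mthfd2l, the paralog of Mthfd2, rose as well (log2 fold change 1.00, SE 0.16, edgeR adjusted p 0.00200) but from a low level, and the ratio of its CPM to that of Mthfd2, also chosen after the values were seen, was 0.0145 ± 0.00301 for WT and 0.0309 ± 0.000347 for Srrm2+/-. Mthfd1, Amt and Gcsh were named after their values were seen.

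**Figure D4:**
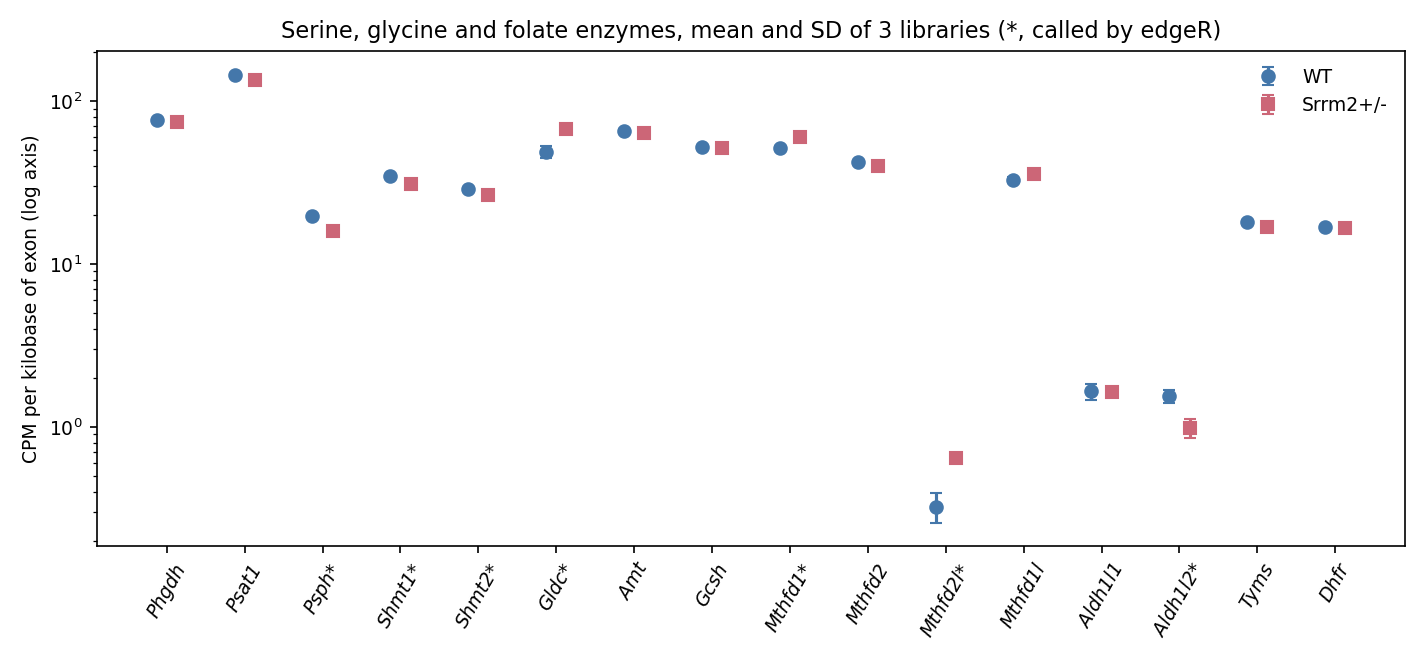
CPM per kilobase of annotated exon (log axis) of serine, glycine and folate enzymes in WT (blue circles) and Srrm2+/- (red squares), as mean and SD of 3 libraries each; an asterisk marks genes called by edgeR. Psat1 and Phgdh are among the highest and are not called, while Gldc and Mthfd2l are higher and Psph and Aldh1l2 lower in Srrm2+/-.

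Levels of the 10 genes were compared with each other as CPM per kilobase of annotated exon. In WT the order began with Asns (277 ± 13.6), Atf4 (167 ± 1.49), Psat1 (144 ± 4.18), Phgdh (76.2 ± 1.75) and Hspa5 (57.8 ± 2.61), followed by Mthfd2 (42.5 ± 0.404) and Ddit3 (36.2 ± 4.32). Trib3, Shmt2 and Chac1 closed the order at 29.2 ± 2.04, 28.99 ± 0.390 and 28.2 ± 0.946 and did not differ beyond their spread. In Srrm2+/- cells Atf4 (136 ± 3.45) and Psat1 (135 ± 2.39) no longer differed beyond their spread, and Hspa5 (74.3 ± 5.96) drew level with Phgdh (74.1 ± 1.70). Lengths are those of all annotated exons of a gene joined, which need not be the isoforms these cells use.

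Hspa5 encodes BiP, the main Hsp70 chaperone of the ER, which also holds the stress sensors of that compartment inactive (ENSMUSG00000026864, chr2:34771970-34777547, plus strand). It was at 255, 246 and 233 CPM in WT and at 285, 326 and 331 CPM in Srrm2+/-. Every Srrm2+/- library was above every WT library, with replicate 1 the lowest of them. With means of 244 ± 11.02 and 314 ± 25.2 CPM, Hspa5 rose to 129% of WT (log2 fold change 0.36, SE 0.06, edgeR adjusted p 0.00303), and the call held in the 14 alternative fits (log2 fold change 0.32 to 0.43).

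Few other genes of the unfolded protein response rose. Of 26 listed, 1 was called higher and 10 lower, with a median of -0.13. These were 3.85% and 38.5%, against 13.6% and 11.7% of all genes tested. The 1 higher gene was Manf, a secreted ER stress protein (0.23, SE 0.04, edgeR adjusted p 0.00523). The sensor and factor genes Atf6 (-0.32, SE 0.05) and Xbp1 (-0.48, SE 0.08) were lower. Hsp90b1, the ER member of the Hsp90 family, had means of 497 ± 1.99 and 545 ± 26.6 CPM (log2 fold change 0.13, SE 0.04). Its Srrm2+/- libraries were all above those of WT, as for 21.4% of all genes tested, but it was not called (edgeR adjusted p 0.0568). Herpud1, which serves ER-associated degradation and is induced by both ATF4 and the ER sensors, was at -0.24 (SE 0.06). The number called in this list fell from 11 to 7 without WT replicate 2, and to 5 without WT replicate 3 or Srrm2+/- replicate 3. It was 12 under RLE or limma voom and 13 under DESeq2, the 1 CPM filter or removal of short RNA genes. The ratio of Hspa5 to Hsp90b1 CPM was 0.491 ± 0.0220 for WT and 0.576 ± 0.0251 for Srrm2+/-, and that of Hspa5 to Canx 0.194 ± 0.00972 and 0.273 ± 0.0201. Both ratios, Hsp90b1, Herpud1 and Canx were picked after their values were seen.

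The ER stress response element, to which ATF6 binds with NF-Y, was searched on both strands as CCAAT followed, after 9 bases of any kind, by CCACG. It was found in 0.119% of the 32851 windows, in that of Hspa5 alone among the 10 genes, and in 8 of the 21 windows of the ER list. These 8 genes were not uniform, since Canx, Creld2 and Dnajc3 were called lower, Hsp90b1, Calr, Pdia6, Syvn1 and Derl3 were not called and none was called higher. The stretches of Hspa5, Canx and 1 of the 2 matches of Hsp90b1 are shown with the element in capitals. These genes share it, but Hspa5 was called higher, Canx was called lower and Hsp90b1, at 0.13, was not called. The stretches lie at chr2:34772020-34772049 (plus strand), chr11:50325794-50325823 and chr10:86705632-86705661 (both minus strand).
Hspa5: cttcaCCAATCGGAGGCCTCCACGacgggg
Canx: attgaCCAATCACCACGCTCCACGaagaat
Hsp90b1: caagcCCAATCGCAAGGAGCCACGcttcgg

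The Hspa5 element begins 65 bases before its RefSeq start, that of Canx 145 and that of Hsp90b1 212 bases before theirs. The GENCODE span of Hspa5 given above begins further upstream, so the element lies inside that span. Canx, a lectin chaperone of the ER, was at 91.2% of WT (log2 fold change -0.13, SE 0.03, edgeR adjusted p 0.0215), while Hspa5 was at 129%.

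Heat shock genes of the cytosol were listed as a further comparison for Hspa5. Of 9 tested, 3 (33.3%) were called higher and 1 (11.1%) lower, against 13.6% and 11.7% of all genes tested. Hspa8, the constitutive cytosolic Hsp70, rose to 133% of WT (0.41, SE 0.04), close to Hspa5, and Hspa1b (1.09, SE 0.12) and Hspa1a (1.30, SE 0.26) rose from low levels. Hspa1a, named after its value was seen, and Hspa1b are near-identical copies whose reads the counting could exchange. Hsp90aa1, the cytosolic Hsp90, fell to 83.7% of WT (-0.26, SE 0.03). Hsf1, which drives this response, had 3 counts in WT replicate 1, 22 in Srrm2+/- replicate 1 and 0 elsewhere, and was not tested. Whether so low a count reflects the cells or the counting was not tested, so it does not show that Hsf1 is absent.

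Replicate 1 of both groups tended to take the inner position. Srrm2+/- replicate 1 was the highest Srrm2+/- library for 7 of the 10 genes (Atf4, Ddit3, Trib3, Chac1, Asns, Phgdh and Shmt2), which was so for 34.5% of all genes tested. WT replicate 1 was the lowest WT library for 7 of the 10 (Ddit3, Trib3, Chac1, Asns, Phgdh, Psat1 and Shmt2), against 35.5% of all genes tested. For Ddit3, Trib3, Chac1, Asns and Shmt2 the libraries of replicate 1 were thus the nearest pair across the groups, and leaving either out did not change the number of genes called, which stayed at 7. Total RNA of a culture cannot tell fewer cells with a stress response from less of these mRNAs in each cell.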

How the data were processed

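Total RNA libraries from 3 WT and 3 Srrm2+/- cultures were prepared with a stranded kit and sequenced from both ends. With kallisto 0.46.1 and the transcripts of GENCODE M24, the authors made a deposited table of estimated counts per gene without normalization. How strand was set in counting was not given in the sources used here. Groups and replicate numbers came from sample titles. Estimated counts were rounded. Symbols, positions and exon lengths came from GENCODE M21 on GRCm38, the build of the files (mm10), and 42156 of 42450 identifiers matched. Promoter windows came from RefSeq.

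Genes past filterByExpr (minimum count 10, minimum total 15) were tested with edgeR 4.0.16 (TMM, glmQLFit, glmQLFTest, two-sided, Benjamini-Hochberg over 18905 genes), genotype being the sole term. The standard error is the size of the log2 fold change divided by the root of F, and 95% intervals use the fit's degrees of freedom. Counting intervals were not used, since spread between cultures exceeded counting error.

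The 10 genes and the lists were chosen with earlier results of these data known. Text names the 10 genes, Srrm2, Pou5f1, Nanog, the eIF2alpha kinases, Ppp1r15a, Psph, Shmt1 and, per list, up to 2 called genes with the largest log2 fold changes in each direction at a mean log2 CPM from 1 upward, and states other picks. A listed gene is not reported here. Alternatives were RLE, upper quartile, DESeq2 1.42.0, limma 3.58.1 voom, other filters, a replicate block, each library left out, short RNA genes removed and stricter call rules. Scripts were tested on simulated counts. Libraries with the same replicate number showed no shared deviation from their group means (correlations -0.0421, 0.0534 and -0.00263), so numbers were not treated as pairs.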

Additional observations from a re-analysis of the deposited data

How the results depend on the processing

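The median log2 fold change of the 10 genes stayed between -0.22 and -0.16 over the 14 alternatives run for it, and that of Srrm2 between -0.72 and -0.65, past the threshold in each. Atf4, Chac1, Asns and Hspa5 kept their call and direction, and Phgdh, Psat1 and Mthfd2 stayed uncalled, under the same alternatives. The number of the 10 genes called was 4 to 7 with 1 library left out, 4 at an adjusted p under 0.01 and 0 when a log2 fold change of at least 1 was also required, since none of the 10 changed by that much. It was 6 under the filter of at least 1 count, where Shmt2 was lost (adjusted p 0.0661), and 7 under RLE, upper quartile, DESeq2 and limma voom. With the replicate block, for which the labels give numbers but no pairing, 5 were called, and Ddit3 (adjusted p 0.0519) and Shmt2 (0.0598) were lost. The block also left 4 synthetases and 0 trophectoderm markers called.

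For the lists, the number of genes called with 1 library left out was 1 to 3 for eIF2alpha kinases and regulators, 4 to 6 for synthetases, 5 to 11 for ER genes and 0 to 1 for trophectoderm markers. At an adjusted p under 0.01 it was 1 for eIF2alpha kinases and regulators, 3 for synthetases, 4 for ER genes and 0 for primitive endoderm and for trophectoderm markers. With a log2 fold change of at least 1 required it was 1 for partner factors, 2 for heat shock genes and 0 for eIF2alpha kinases and regulators, other ATF4 targets, transporters, synthetases, serine and folate genes, ER genes, ESC markers and trophectoderm markers. DESeq2 called 0 trophectoderm markers, and the filter of at least 1 CPM left 0 primitive endoderm and 0 trophectoderm markers called. Fewer libraries or genes entered the fits with a library left out or a stricter filter; other causes were not tested. Adding the Phgdh pseudogenes was chosen after seeing the data.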
